A study of Mus musculus with 8 samples.

Results

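Potassium channels set the resting potential of a sensory neuron, end each action potential and decide how often it can fire again. The genes described here are the voltage-gated Kv1, Kv2 and Kv3 pores, the silent Kv subunits that join Kv2 pores, the EAG, ERG and ELK pores, the inward rectifiers, the calcium- and sodium-activated pores, and the auxiliary subunits of these channels. The members are all counted genes with a mouse symbol starting Kcn, without the Kcnk leak channels, the Kcnd and Kcnip A-type complex, the Kcnq channels and symbols ending in os or -ps. This left 70 of 55573 genes counted, and 70 of the 99 whose symbol starts with Kcn. Of the members, 68 code for a protein. The other 2, Kcnmb4os1 and Kcnmb4os2, are antisense RNAs of Kcnmb4 whose symbols end in os1 and os2, so the rule kept them.

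The cells were C low-threshold mechanoreceptors (C-LTMRs), unmyelinated dorsal root ganglion neurons that respond to light touch, sorted from adult mice by their GFP. The groups were male bhlha9 KO, male WT, female bhlha9 KO and female WT mice, with 2 biological replicates each (8 libraries in 4 groups). The KO mice lack the basic helix-loop-helix factor gene Bhlha9, and the labels name no other allele or treatment and do not say what drives GFP or how the mutation was made. The study's title names thermotaxis, formalin pain and a difference between the sexes, so KO was set against WT within each sex.

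Libraries held between 50919885 and 71956309 counts. Levels are CPM, a gene's count scaled to the size of its library, and 3 counts, the level that a count of 0 allows, equal 0.0421 to 0.0587 CPM, for counting error only. Bhlha9 stood at 0.156 and 0.277 CPM in male KO against 151 and 161 CPM in male WT libraries. In females it had 0.47 and 0.253 CPM in female KO against 140 and 127 CPM in female WT libraries. This matched the labels. Th, a defining C-LTMR marker, was high in every library, at 2976 CPM or more. The library male KO 1 stood apart: the summed level of 8 markers of myelinated afferents was 5842 CPM there and 2001 CPM in male KO 2, against 1340 and 1187 CPM in male WT. In the females that sum was 1374 and 1130 CPM in KO against 1075 and 966 CPM in WT, mostly from Nefm. Of the 8 markers 5 had a positive and 3 a negative log2 fold change in females. Of those 3, Etv1 had 0.215 and 0.211 CPM in female KO against 8.12 and 22.3 CPM in female WT. In a bulk sample, fewer cells of a type and less RNA per cell cannot be told apart.

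The pore of every potassium channel carries a short selectivity filter, a run of 5 amino acids that strips water from potassium and lets it pass. All 55 of 55 pore-forming and silent members held its signature in frame in their reference coding sequence, as did 158 of 21584 protein-coding genes with a complete coding sequence (0.732%). The signature searched was threonine or serine, then valine, isoleucine or leucine, then glycine, then tyrosine or phenylalanine, then glycine, on the coding strand. The 39 bases around it are shown for 7 members that the results turn on, from the GRCm38 reference transcripts, 5′ to 3′ on the coding strand, with the 15 bases of the signature in capitals.
Kcnh6: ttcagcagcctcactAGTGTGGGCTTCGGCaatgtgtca
Kcnh2: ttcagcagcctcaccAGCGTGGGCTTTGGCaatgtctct
Kcnt1: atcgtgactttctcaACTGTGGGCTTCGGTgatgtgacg
Kcna2: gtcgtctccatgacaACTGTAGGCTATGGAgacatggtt
Kcnb2: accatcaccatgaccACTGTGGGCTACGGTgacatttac
Kcnc4: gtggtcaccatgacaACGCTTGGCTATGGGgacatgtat
Kcnn1: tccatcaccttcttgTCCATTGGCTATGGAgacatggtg
These stretches lie within coding exons. Kcnh6 lies at chr11:106019061-106019099 on the plus strand, Kcnh2 at chr5:24325546-24325584 on the minus strand and Kcnt1 at chr2:25894352-25894390 on the plus strand. Kcna2 lies at chr3:107105209-107105247 (plus) and Kcnb2 at chr1:15710031-15710069 (plus). Kcnc4 lies at chr3:107447790-107447828 (minus) and Kcnn1 at chr8:70850648-70850686 (minus). The last codon but 1 is for phenylalanine in the ERG members Kcnh6 and Kcnh2 and in the sodium-activated Kcnt1, and for tyrosine in the other 4.

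The sorted C-LTMR samples held RNA of members of most channel classes. The WT libraries also held the glial marker Apoe at 345 to 2379 CPM and the peptidergic marker Calca at 59.4 to 852 CPM. A member at a low level can therefore not be assigned to C-LTMRs from these counts alone. In the WT libraries 37 of 70 members (52.9%) reached 1 CPM in all 4, against 24.2% of all genes counted. They comprised 5 of 8 Kv1 pores, 2 of 2 Kv2 pores, 4 of 4 Kv3 pores, 5 of 8 EAG, ERG and ELK pores, 7 of 8 calcium- or sodium-activated pores and 3 of 15 inward rectifiers. They also included 5 of 10 silent subunits, 2 of 3 Kv beta subunits, 2 of 4 BK beta subunits and both antisense RNAs, but none of the 5 KCNE auxiliary subunits, of which Kcne1l was highest at 0.223 ± 0.447 CPM per kb, nor the regulator Kcnrg at 0.0172 ± 0.0345 CPM per kb (SD, n = 4). No count fell on 9 members in any of the 8 libraries: Kcne1, Kcne2, Kcnj1, Kcnj2, Kcnj5, Kcnj8, Kcnj14, Kcnj15 and Kcnv2. Another 7 stayed below 1 CPM in every library without all being 0.

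Levels of different genes were compared as CPM per kb of exon length in the 4 WT libraries, where long untranslated exons lower a gene's value (mean ± SD, n = 4). Kcnh6, an ERG pore, was highest at 111 ± 12.3 CPM per kb, and the inward rectifier Kcnj12 followed at 107 ± 17.3 CPM per kb. Their libraries overlapped, so the order of these 2 is not resolved. Kcnab2, a cytoplasmic beta subunit of Kv1 channels, reached 62.9 ± 9.1 CPM per kb, and its lowest library (54.9 CPM per kb) lay above the highest of Kcng2 (45.4 CPM per kb). Kcng2, a silent subunit that makes no channel alone, averaged 39.8 ± 4.71 CPM per kb. Kcnn1, the SK1 channel opened by calcium through calmodulin, averaged 20 ± 3.4 CPM per kb.

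The next members lay between 8.72 and 16.4 CPM per kb, each overlapping its neighbours in the order. Kcnab1, another Kv1 beta subunit, averaged 16.4 ± 1.52 CPM per kb, and Kcna2, the low-threshold Kv1.2 pore, averaged 15.1 ± 1.29 CPM per kb. The ERG pore Kcnh2 averaged 13.4 ± 4.25, the Kv1.6 pore Kcna6 12.2 ± 2.21 and the silent subunit Kcns1 11.1 ± 2.83 CPM per kb. Kcna4, the fast-inactivating Kv1.4 pore, stood at 9.98 ± 1.76, Kcna1 (Kv1.1) at 9.95 ± 2.05, the EAG pore Kcnh1 at 9.55 ± 1.09 and Kcnt1, the sodium-activated Slack channel, at 8.72 ± 2.37 CPM per kb. Counting was without strand, and 39.6% of the exon bases of Kcna6 are shared with the antisense gene Gm26673, so reads of the pair cannot be told apart.

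Members of other classes lay lower. Kcnb2, the Kv2.2 delayed rectifier, averaged 3.94 ± 0.891 CPM per kb. Kcnc2 led the Kv3 class, pores that open at positive voltages and close fast, at 3.87 ± 1.07 CPM per kb, followed by Kcnc4 at 2.45 ± 1.34 CPM per kb. Kcnma1, the BK pore opened by calcium and voltage, averaged 2.1 ± 0.218 CPM per kb, and its beta subunit Kcnmb4 averaged 3.05 ± 0.709 CPM per kb. Kcnmb4os1 averaged 5.4 ± 1.58 CPM per kb, and 43.1% of its exon bases are shared with Kcnmb4. Summed over classes, the WT mean was 141 CPM per kb for EAG, ERG and ELK pores, 113 for inward rectifiers, 79.4 for Kv beta subunits, 59.9 for silent subunits and 52.9 for Kv1 pores, of 523 CPM per kb over all members. Kcnh6 made up most of the ERG sum and Kcnj12 most of the inward rectifier sum.

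**Figure D1:**
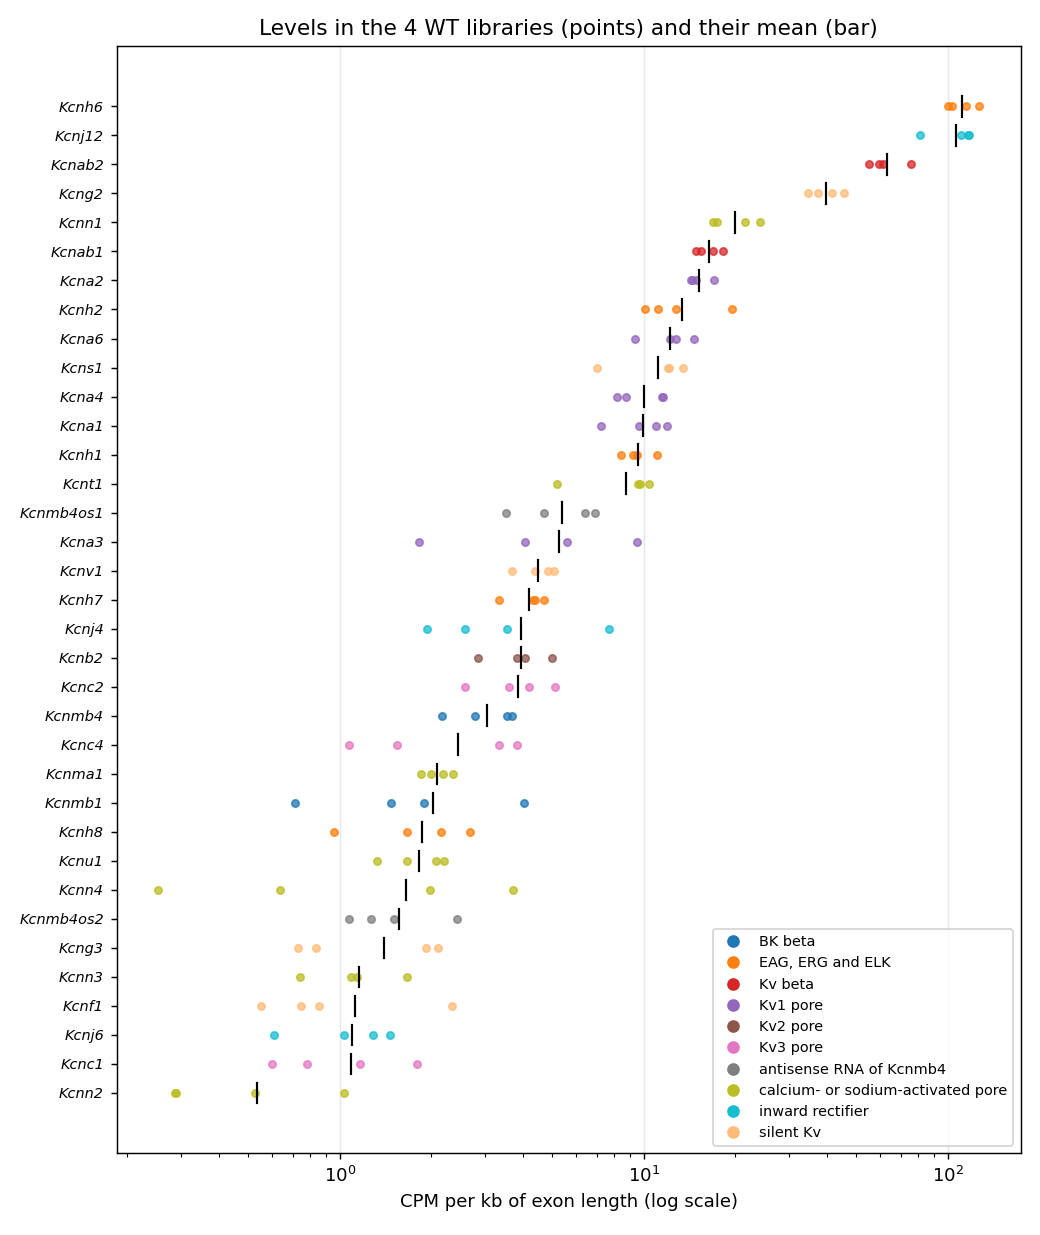
CPM per kb of exon length (log axis) in each of the 4 WT libraries (points) with their mean (bar), for 35 of the 37 members at 1 CPM or more in all 4, coloured by class. Kcnh6 and Kcnj12 overlap at the top, Kcnab2 and Kcng2 follow apart from each other, and from Kcnn1 down the libraries of neighbouring genes overlap.

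In males, no member passed the test between KO and WT. edgeR's quasi-likelihood test, with Benjamini-Hochberg adjustment over 22013 genes, called 0 of the 54 members tested, against 0.00454% of all genes (1 gene, Bhlha9). The adjusted p was 1 for each of the 54. At an unadjusted p below 0.05 the count was 7 members (Kcna1, Kcnb2, Kcnc1, Kcnc4, Kcnh3, Kcnh4 and Kcnj10), against 3.5% of all genes. DESeq2, the alternative count test, called 5 members (Kcnc1, Kcnc4, Kcng4, Kcnh3 and Kcnj10), against 1.0% of all genes, all higher in KO. Without male KO 1 it called 1, Kcnh3. Over the tested members the median log2 fold change was 0.32, with 33 higher and 20 lower, against a median of 0.02 over all genes tested, of which 51.9% were higher. It was 0.09 without male KO 1. The 2 KO libraries lay outside the 2 WT libraries for 21 of 44 members at a mean of 1 CPM or more, with 16 higher and 5 lower. Among all genes at that level 29.7% did so, 15.4% higher and 14.3% lower.

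Among the Kv3 pores, which let neurons fire fast, Kcnc4 and Kcnc1 lay apart between male KO and WT. Kcnc4 (ENSMUSG00000027895, Kv3.4) had 25.8 and 16.2 CPM in male KO against 4.11 and 5.94 CPM in male WT libraries. The lower KO library was above the higher WT one. Its log2 fold change was 2.06 (SE 0.39), with an adjusted p of 1 by edgeR and of 0.000101 by DESeq2, which was 0.0613 without male KO 1. Kcnc1 (Kv3.1) had 96 and 15.2 CPM in male KO against 5.65 and 7.41 CPM in male WT libraries. The KO libraries again lay above, but 1 of them held most of the difference, with a log2 fold change of 3.09 (SE 0.82) that was 1.22 without male KO 1. The DESeq2 adjusted p of Kcnc1 was 0.00569 with that library and 0.588 without it. Kcnc2 overlapped between the groups, with 14.2 and 44.8 CPM in male KO against 18.4 and 36.6 CPM in male WT.

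Several of these genes were high in the library with high markers of myelinated afferents. Of the 8 markers of that list 7 had a positive log2 fold change in males, and none was at 0 in a male library. Nefh, the heavy neurofilament, had 1551 and 296 CPM in male KO against 105 and 72.4 CPM in male WT, and Pvalb, a marker of proprioceptors, had 83.1 and 6.24 CPM in male KO against 2.71 and 1.04 CPM in male WT. Kcna1 had 239 and 54.5 CPM in male KO against 46.2 and 57.1 CPM in male WT, so the second KO library lay within the WT range. Kcng4, a silent subunit, had 27.6 and 0 CPM in male KO and 0 in every other library, and was too seldom detected to enter the edgeR test. Male KO 1 was the highest of the 8 libraries for 13 of 42 members, against 16% of all genes. The part of these markers in the channel values was not tested. The 8 C-LTMR markers summed to 3926 and 5601 CPM in male KO against 6300 and 6164 CPM in male WT, and all 8 had a negative log2 fold change. In females all 8 had a positive one, with a median of 0.18, and summed to 5316 and 7101 CPM in KO against 6343 and 5390 CPM in WT.

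Other marker lists varied as well. All 8 peptidergic nociceptor markers had a positive log2 fold change in males, and they summed to 1204 and 1747 CPM in male KO against 330 and 364 CPM in male WT, with Trpv1 at 0 in male WT 1. Markers of nonpeptidergic nociceptors and pruriceptors summed to 95.6 and 313 CPM in male KO against 64.5 and 93 CPM in male WT, with Nppb at 0 in these 4 libraries. Vascular and fibroblast markers summed to 426 and 346 CPM in male KO against 343 and 453 CPM in male WT, nearly all from Rgs5. Of these 7 markers 6 had a positive log2 fold change in males, with a median of 3.84, and 6 a negative one in females, with a median of -4.07. Both medians are the values of Col1a1 (SE 2.92 in males and 3.68 in females). Col1a1 had 9.78 and 0 CPM in male KO against 0.127 and 0.55 CPM in male WT, and 0.0634 CPM or less in females. Cldn5 had 2.34 and 0 CPM in male KO, and 0.0353 and 16.1 CPM in female WT, so single libraries carried these values. Immune markers summed to between 11.8 and 25.4 CPM in all 8 libraries, mostly from Csf1r, with Ptprc at 0 in 7 of them. Among them Lyz2 had 1.78 and 8.49 CPM in male WT and 0 in every other library. Red blood cell markers summed to 20.6 CPM or less.

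Kcnj10, the Kir4.1 inward rectifier known from satellite glia, had 10.6 and 5.18 CPM in male KO against 2.17 and 0.928 CPM in male WT libraries. The KO libraries did not overlap the WT ones, with a log2 fold change of 2.34 (SE 0.62). Its adjusted p was 1 by edgeR and 0.0263 by DESeq2, and 0.562 by DESeq2 without male KO 1. Glial markers moved beside it: 7 of 8 had a positive log2 fold change in males, and their sum was 3927 and 2738 CPM in male KO against 2599 and 905 CPM in male WT. Sox10, a defining glial factor, had 12 and 10.7 CPM in male KO against 5.8 and 1.57 CPM in male WT. The part of glial RNA in the Kcnj10 value was not tested.

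The BK accessory subunit Kcnmb1, known for raising calcium sensitivity in smooth muscle, had 19.2 and 70.5 CPM in male KO against 6.2 and 2.99 CPM in male WT. The KO libraries lay above but differed among themselves by more than the WT level. The log2 fold change was 3.29 (SE 1.46), with an adjusted p of 1 by edgeR and 0.197 by DESeq2. In females Kcnmb1 had 46.1 and 1.42 CPM in KO against 7.92 and 16.9 CPM in WT. The nonpeptidergic marker Mrgprd had 37.7 and 121 CPM in male KO against 3.33 and 1.3 CPM in male WT. In females Mrgprd had 41.2 and 0.0421 CPM in KO against 13.1 and 1.12 CPM in WT. Il31ra of the same list had 14.5 and 15.5 CPM in male KO against 15.6 and 14.9 CPM in male WT. The part of such cells in the Kcnmb1 value was not tested. The pore Kcnma1 had 42.7 and 49.4 CPM in male KO against 37 and 31.4 CPM in male WT. Of the silent subunits, Kcns3 had 20.3 and 5.92 CPM in male KO against 2.43 and 0.0314 CPM in male WT. Kcns2 had 0 and 3.14 CPM in male KO and 0 in both male WT libraries.

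Low members without overlap in males included the ELK pores Kcnh3 and Kcnh4, an EAG pore and 2 inward rectifiers. Kcnh3 and Kcnh4 averaged 0.833 and 0.684 CPM over the male libraries, below the minimum of 1 CPM for the counts above. Kcnh3 had 0.433 and 2.9 CPM in male KO and 0 in both male WT libraries. Kcnh5 had 2.41 and 2.22 CPM in male KO against 0 and 0.409 CPM in male WT, and Kcnh4 had 0 in both male KO libraries against 1.93 and 0.802 CPM in male WT. Kcnj3, a subunit of G-protein-gated channels, had 7.23 and 4.41 CPM in male KO against 1.24 and 0.0629 CPM in male WT, with 31.1% of its exon bases shared with the antisense gene Gm26794. Kcnj16 had 0.0867 and 5.04 CPM in male KO against 0 and 0.0472 CPM in male WT.

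At a mean of 1 CPM or more, the 5 members lower in both male KO libraries included Kcnh6 and Kcnj12, the highest per kb. Kcnh6 had 315 and 336 CPM in male KO against 451 and 366 CPM in male WT, a log2 fold change of -0.33 (SE 0.2). Kcnj12 had 216 and 302 CPM in male KO against 305 and 321 CPM in male WT, and Kcnn1 had 67.9 and 72 CPM against 79.8 and 77.7 CPM. Kcnj4 had 3.5 and 4.99 CPM in male KO against 7.66 and 5.55 CPM in male WT, and Kcnj6 had 6.22 and 6.94 CPM against 9.82 and 11.1 CPM. None passed the edgeR test.

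The authors' deposited table for males lists 150 genes, 140 of them with a positive log2 fold change. Its direction is KO over WT, since Bhlha9 stands at -7.4 there. It holds 3 members, all positive. In the authors' deposited table Kcnmb1 has a log2 fold change of 1.75 (adjusted p 0.000782), Kcnc1 of 1.5 (adjusted p 0.0107) and Kcnc4 of 1.43 (adjusted p 0.00594). The authors' deposited table for females lists 13 genes and no member.

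In females, edgeR's test called 0 of the 54 members tested, against 0.00454% of all genes, and the adjusted p was 1 for each. At an unadjusted p below 0.05 the count was 4 (Kcna3, Kcnb2, Kcnmb3 and Kcns3), against 3.81% of all genes, and DESeq2 called 1, Kcns3, against 1.19% of all genes. The median log2 fold change over tested members was 0.02, with 28 higher and 24 lower, against 0.0 over all genes. KO and WT libraries did not overlap for 15 of 40 members, 4 higher and 11 lower, against 30.9% of all genes, 14.5% higher and 16.5% lower.

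Kcns3, the silent Kv9.3 subunit, had 0.431 and 0.0421 CPM in female KO against 7.36 and 13.2 CPM in female WT libraries. Both KO libraries lay far below both WT libraries, and the log2 fold change was -5.46 (SE 1.95), with an adjusted p of 1 by edgeR and 0.0271 by DESeq2. Kcna3, the Kv1.3 pore, had 14.8 and 14.8 CPM in female KO against 3.48 and 7.76 CPM in female WT, a log2 fold change of 1.40 (SE 0.58) that was 0.93 without female WT 1 and 2.09 without female WT 2. In males the Kcna3 libraries overlapped, at 4.82 and 10.9 CPM in KO against 10.6 and 18.1 CPM in WT. Kcnmb3, a BK beta subunit, had 0.372 and 0.815 CPM in female KO and 0 in the other 6 libraries.

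The lower members in female KO came from several classes. Kcnn1 had 50.9 and 91.3 CPM in female KO against 110.3 and 98.5 CPM in female WT, and Kcnt1 had 69.1 and 45.9 CPM against 92.6 and 90.7 CPM. Kcnn2, the SK2 channel, had 1.55 and 0.309 CPM in female KO against 7.71 and 2.14 CPM in female WT. The silent subunits Kcng3 (4.27 and 2.18 CPM in KO against 6.44 and 7.05 CPM in WT) and Kcnv1 (13.4 and 12.9 CPM in KO against 16.9 and 23.3 CPM in WT) also lay apart. The log2 fold changes of these 5 ran between -2.41 for Kcnn2 and -0.55 for Kcnn1, and none passed the edgeR test. Single libraries moved both values: Kcnn2 stood at -1.21 without female WT 1 and -3.98 without female KO 1, and Kcnn1 at -0.19 without female KO 1 and -1.04 without female KO 2. Of the peptidergic nociceptor markers 7 of 8 had a negative log2 fold change in females, and they summed to 1154 and 236 CPM in female KO against 795 and 1538 CPM in female WT. Among them Calca had 713 and 5.94 CPM in female KO against 351 and 852 CPM in female WT. The part of these markers in the channel values was not tested.

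**Figure D2:**
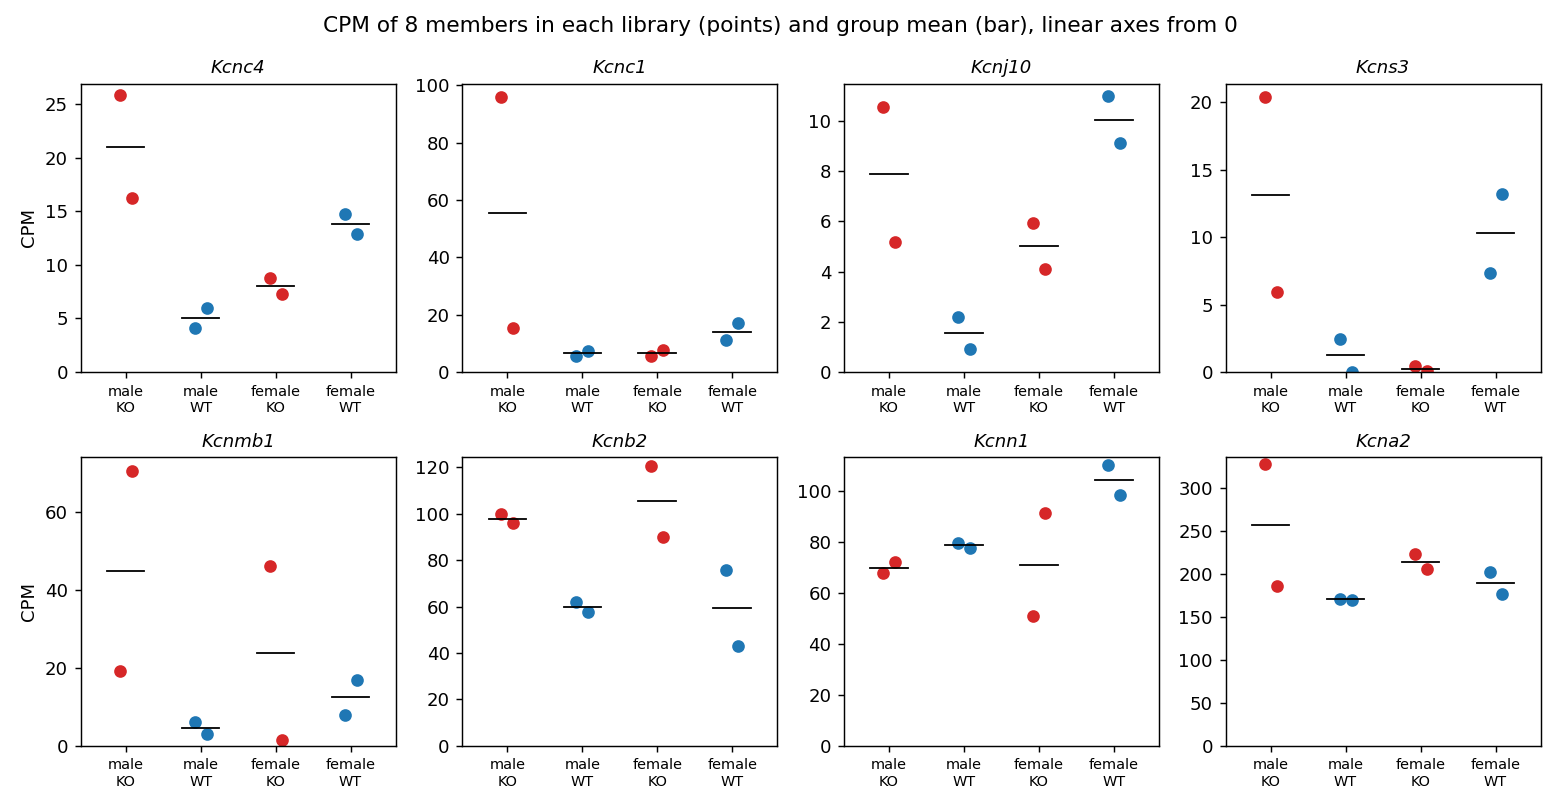
CPM (linear axes from 0) of 8 members in each library (points) with group means (bars), with KO in red left of WT in blue for each sex. Kcnc4, Kcnc1, Kcnj10 and Kcns3 have KO above WT in males and below it in females, Kcnb2 has all 4 KO libraries above all 4 WT libraries, and male KO 1 alone carries most of the Kcnc1 difference.

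KO lay on opposite sides of WT in the sexes for 5 members. Kcnc1, Kcnc4, Kcnj10, Kcnmb4os1 and Kcns3 had the pair of KO libraries above the WT pair in males and below it in females. They are 11.9% of the 42 members at a mean of 1 CPM or more, against 2.97% of all genes at that level, and 0 members had the reverse pattern, against 2.27%. Either pattern was seen in 5.24% of all genes. In females Kcnc4 had 8.81 and 7.32 CPM in KO against 14.7 and 12.8 CPM in WT, and Kcnc1 had 5.46 and 7.56 CPM against 11 and 17 CPM. Kcnj10 had 5.91 and 4.12 CPM in female KO against 11 and 9.11 CPM in female WT. Kcnmb4os1 had 2.43 and 4.24 CPM in female KO against 5.72 and 5.29 CPM in female WT, and 7.7 and 4.29 CPM in male KO against 3.89 and 2.89 CPM in male WT. Cell type markers had the pattern too, among them Etv1, Gpx3, Tac1 and Sox10, while the C-LTMR markers Fam19a4 and Cacna1h had the reverse. The log2 fold change in males minus that in females was 9.69 (SE 1.53) for Etv1 and 10.39 (SE 1.93) for Gpx3. It was -0.78 (SE 0.32) for Fam19a4 and -0.99 (SE 0.24) for Cacna1h. The part of these markers in the channel values was not tested.

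The difference of the KO effect, males minus females, was 2.84 (SE 0.54) on the log2 scale for Kcnc4, 4.20 (SE 1.12) for Kcnc1, 3.34 (SE 0.85) for Kcnj10, 8.88 (SE 2.61) for Kcns3 and 1.54 (SE 0.78) for Kcnmb4os1. edgeR's interaction test called 0 of 54 members, against 0.0% of all genes, with an adjusted p of 0.98 for each of these 5. At an unadjusted p below 0.05 the count was 8, against 4.73% of all genes. DESeq2 called 7 (Kcnc1, Kcnc4, Kcng4, Kcnh3, Kcnj10, Kcns2 and Kcns3), against 1.44% of all genes, and 3 without male KO 1 (Kcnc4, Kcnh3 and Kcns2). For Kcnc4 its adjusted p was 0.000136 with all libraries and 0.0165 without male KO 1. Kcnh3 and Kcns2 were low in females too. Kcnh3 had 0.0196 and 0.435 CPM in female KO against 2.58 and 0.539 CPM in female WT. Kcns2 had 0 in both female KO libraries against 0.106 and 2.76 CPM in female WT. The Kcns2 difference rested mostly on male KO 2 and female WT 2. WT levels also lay apart by sex: Kcnc4 averaged 5.03 ± 1.3 CPM in male WT and 13.8 ± 1.32 CPM in female WT, and Kcnj10 averaged 1.55 ± 0.881 CPM in male WT and 10.04 ± 1.32 CPM in female WT (SD, n = 2 each). In females all 8 glial markers had a negative log2 fold change, and their sum was 1201 and 2726 CPM in KO against 2554 and 3050 CPM in WT, with Foxd3 at 0 in female KO 1.

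**Figure D3:**
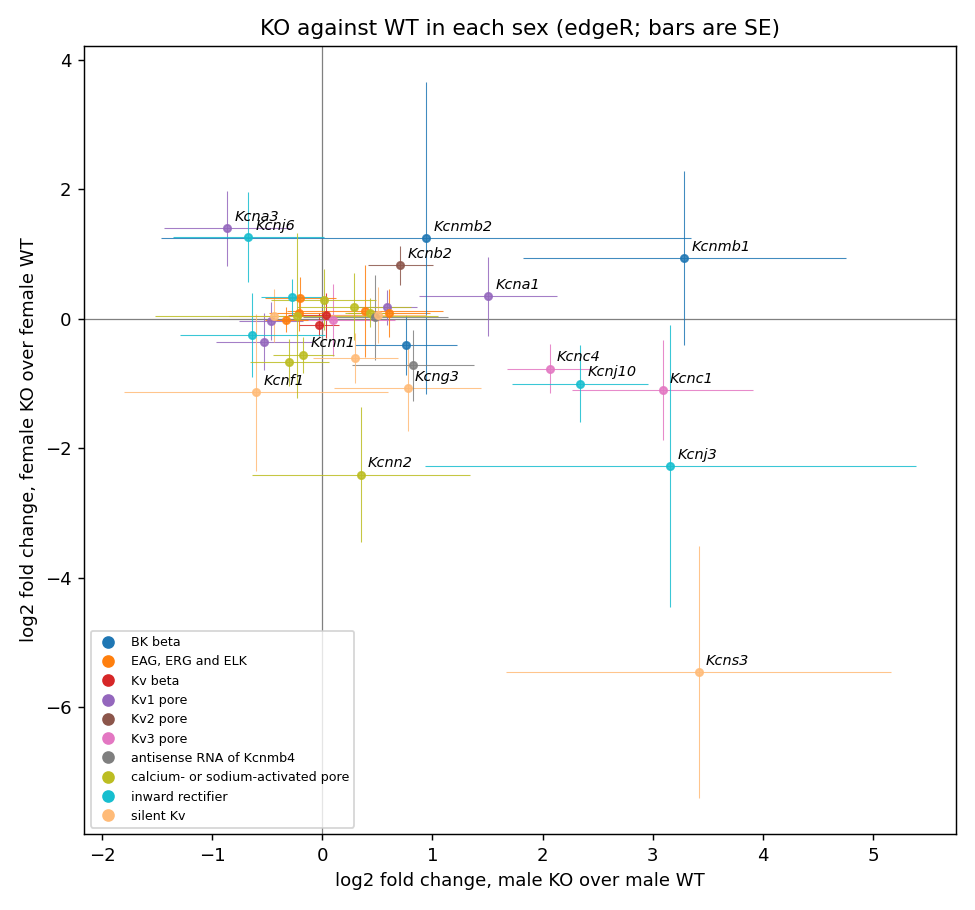
log2 fold change of KO over WT in males (x axis) and in females (y axis) from edgeR, with bars of 1 SE, for tested members at a mean of 1 CPM or more over the 8 libraries (2 are not drawn), coloured by class. Most lie near 0 on both axes; Kcnc4, Kcnj10, Kcnc1, Kcnj3 and Kcns3 lie to the lower right, and Kcnb2 lies above 0 on both axes.

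Across both sexes Kcnb2 was the only member with all 4 KO libraries above all 4 WT libraries. It had 99.96 and 95.8 CPM in male KO against 61.9 and 57.9 CPM in male WT, and 120.4 and 90.2 CPM in female KO against 76 and 43.1 CPM in female WT. Among all genes 0.975% had that pattern, so 1 of 42 members (2.38%) is near the background, and 0 members had all 4 KO libraries below, against 0.887%. The log2 fold change of Kcnb2 was 0.77 (SE 0.19) with the sexes combined, 0.71 (SE 0.29) in males and 0.82 (SE 0.29) in females. The female value was 0.47 without female WT 2 and 1.29 without female WT 1. The combined edgeR p was 0.00473 before and 1 after adjustment, and DESeq2 gave an adjusted p of 0.0371, which was 0.0657 without male KO 1.

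Apart from Kcnb2, Kcna2 was higher in KO without overlap in both sexes and Kcnn1 was lower. Kcna2 had 328 and 186 CPM in male KO against 171 and 169.99 CPM in male WT, and 223 and 205 CPM in female KO against 203 and 177 CPM in female WT. Its gap to the nearest WT library was small in females, and the combined log2 fold change was 0.38 (SE 0.19). Higher values in both sexes without overlap were seen for 4.76% of members against 2.03% of all genes, and lower in both for 2.38% against 2.09%. With the sexes combined edgeR called 0 of 54 members, against 0.00454% of all genes, with 5 at an unadjusted p below 0.05 against 3.56%. DESeq2 called 2, Kcnb2 and Kcng4, against 0.709% of all genes, and 0 without male KO 1.

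The members counted most deeply varied least. The higher replicate of a group was a median of 1.23 times the lower for the 15 members at a median of 50 CPM or more, 1.43 times for the 10 between 10 and 50 CPM, and 1.8 times for the 15 between 1 and 10 CPM. Over the 8 libraries the highest value of those 15 abundant members was between 1.41 and 6.92 times the lowest. Kcnab2 ranged from 359 to 530 CPM over all 8 libraries, and its log2 fold change was -0.03 (SE 0.18) in males and -0.09 (SE 0.18) in females. The summed level of all 70 members was 2863 and 2702 CPM in male KO against 2609 and 2517 CPM in male WT, and 2653 and 2772 CPM in female KO against 2793 and 2524 CPM in female WT.

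Of 19 genes for known channel partners, 15 were tested, and 0 were called by edgeR in either sex. In males 13 had a positive and 2 a negative log2 fold change, with a median of 0.34, and in females 7 were positive and 8 negative, with a median of -0.03. Cntnap2, which clusters Kv1 channels beside nodes of Ranvier, had 54.8 and 26.9 CPM in male KO against 13.2 and 14.1 CPM in male WT, an adjusted p of 0.0161 by DESeq2. Abcc8, the sulfonylurea receptor that joins Kcnj11 in ATP-sensitive channels, had 17.1 and 4.47 CPM in male KO against 0 and 0.582 CPM in male WT. Kcnj11 itself had 1.73 and 1.42 CPM in male KO against 0.0159 and 0.802 CPM in male WT. Amigo1, an auxiliary protein of Kv2 channels, had 47.3 and 47 CPM in male KO against 39.2 and 29.3 CPM in male WT, and 43.3 and 41.5 CPM in female KO against 33.2 and 36.5 CPM in female WT.

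**Figure D4:**
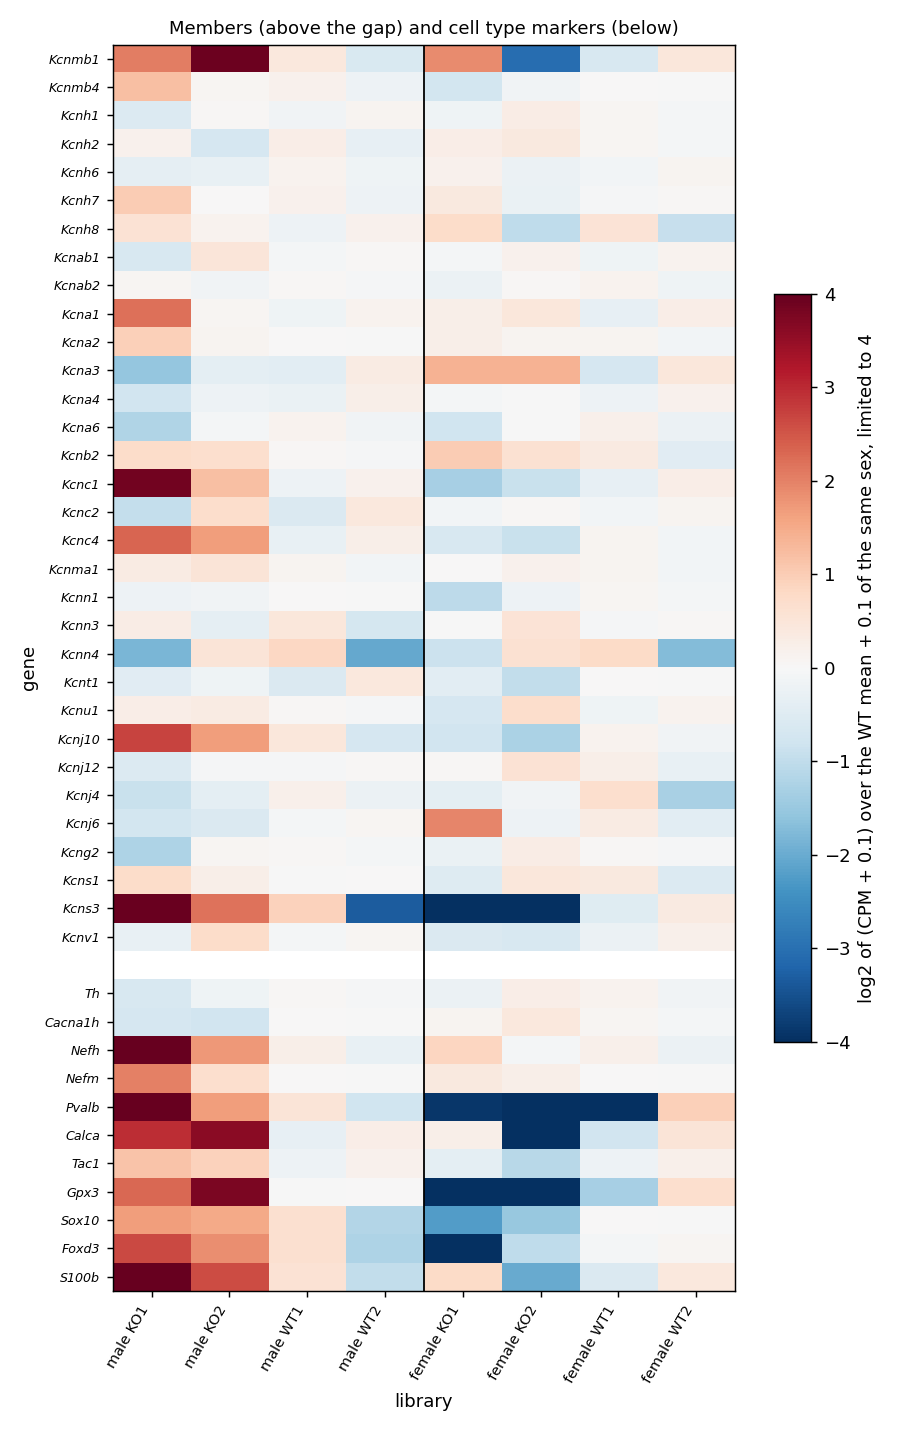
log2 of (CPM + 0.1) in each library over the (WT mean + 0.1) of the same sex, limited to 4 in either direction, for members at a mean of 5 CPM or more (above the gap, 2 not drawn) and 11 cell type markers (below it). Male KO 1 is red for Kcnc1, Kcnc4, Kcna1, Kcnj10 and Kcns3 and for Nefh, Pvalb, Sox10 and S100b, while Kcnh6 and Kcnab2 stay pale in all 8 libraries.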

How the data were processed

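Per the labels' protocols, RNA of GFP+ sorted C-LTMRs was made into cDNA with SMART-Seq v4 (13 PCR cycles) and into libraries with Nextera XT (12 cycles), with no molecular identifiers named, so counts include PCR copies. The deposited table holds whole-number counts per gene, made with featureCounts 1.6.1 over exons of Ensembl release 97 (GRCm38), unstranded and with multi-overlapping reads counted in each gene, per the file headers. The submitters' processing notes name bcl2fastq 2.17.1.14, Subread 1.6.4 and DESeq2 1.14.1; no aligner is named in the labels or headers used here. The authors' deposited tables of genes past a 5% threshold hold a mean signal, log2 fold changes, a test score, p-values and adjusted p-values, per the file headers.

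Symbols came from the GENCODE annotation of GRCm38 (179 identifiers had none), and the filter sequences from its transcripts and coding coordinates. Counts were tested with edgeR 4.0.16 in R 4.3.3 (filterByExpr, TMM, robust quasi-likelihood F test, 4 groups over 8 libraries, 4 residual degrees of freedom, two-sided), adjusted by Benjamini-Hochberg over 22013 genes at 0.05. An additive model of sex and genotype served the sexes combined. CPM values use TMM-scaled library sizes (factors 0.979 to 1.022). The biological coefficient of variation was 76.6%. In simulated data for the male comparison at the estimated dispersion, over 21013 genes, the test recovered 0 of 50 genes changed 2-fold, 28 of 50 changed 4-fold and 44 of 50 changed 8-fold, with 9 false calls. At a dispersion of 0.02, over 21225 genes, it recovered 46, 50 and 50 of 50, with 12 false calls. The simulated counts followed the model's own distribution, and the changed genes were taken from those above 5 CPM on average. Recovery among lower members was therefore not measured, and real data that depart from the model can give less. Replicates are biological per the labels.

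The members, lists and tests were chosen with earlier results of these data known. Named were the 15 highest members per kb in WT, the highest of each class, members called by DESeq2 or in the authors' tables, those with opposite patterns in the sexes, and in each sex up to 12 without overlap by size of fold change. Other members were named after their values were seen, and 2 members are not reported singly here. Alternatives were DESeq2 1.42.0, RLE size factors, no filter, 1 sex alone, a replicate block, other CPM minimums and leaving out each library. DESeq2 without male KO 1 was added after seeing the data.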

Additional observations from a re-analysis of the deposited data

Results flagged for a closer look

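For 5 members the pair of KO libraries lay above the WT pair in males and below it in females, which singled them out for a closer look. They are 11.9% of the 42 members at a mean of 1 CPM or more, against 2.97% of all genes at that level. The difference of the log2 fold changes, males minus females, was 4.2 for Kcnc1, 2.84 for Kcnc4, 3.34 for Kcnj10, 1.54 for Kcnmb4os1 and 8.88 for Kcns3. edgeR's interaction test did not pass for any of them (adjusted p of 0.98 each). Without male KO 1, these differences were 2.33 for Kcnc1, 2.46 for Kcnc4, 2.74 for Kcnj10, 1.06 for Kcnmb4os1 and 7.72 for Kcns3. Over all 8 left-out libraries they ran from 2.33 to 4.95 for Kcnc1, 2.46 to 3.1 for Kcnc4, 2.74 to 4.08 for Kcnj10, 1.06 to 2.0 for Kcnmb4os1 (highest without female KO 2) and 7.72 to 14.07 for Kcns3 (highest without male WT 1).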

How the results depend on the processing

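Over 33 fold changes of single members, 436 of 453 values under the alternatives kept their direction and their side of the threshold, 17 passed it where edgeR did not (all with DESeq2), and 0 reversed. DESeq2 called 5 members in males, 1 in females, 7 for the difference and 2 with the sexes combined, where edgeR called 0, and without male KO 1 it called 1, 1, 3 and 0. With all libraries DESeq2 called 1.0% of all genes in males, 1.19% in females, 1.44% for the difference and 0.709% with the sexes combined. Its fit without male KO 1 had 1 male KO library. In that fit calls among all genes rose with the sexes combined and in females, and fell in males and for the difference. Leaving out each library with edgeR left each of the 4 counts of members at 0. The median log2 fold change ranged from 0.09 to 0.55 in males and from -0.12 to 0.01 in females over the left-out libraries. It was -0.05 in females without female KO 1 and -0.12 without female KO 2. Members expressed in all 4 WT libraries numbered 24 at 5 CPM against 37 at 1 CPM, and 37 to 39 with a WT library left out. The cause of these shifts was not tested. Deviations from the group mean correlated weakly between samples with the same replicate number (from -0.102 to 0.109), so no pairing was seen. With 2 libraries per group these values cannot show whether samples of the same number were handled together. With a replicate block 0 members were called in each comparison, the median was 0.28 in males and 0.01 in females, and Bhlha9 was still called in males but no gene in females. With the libraries of 1 sex alone edgeR called 0 genes in males and 0 in females, so Bhlha9 did not pass there either. In simulated data for the male comparison, genes above 5 CPM changed 2-fold were recovered in 0 of 50 cases at the estimated spread. At a dispersion of 0.02 they were recovered in 46 of 50.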
